A study of Mus musculus with 20 samples.

Results

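Glycolysis and the response to low oxygen were followed through 38 mouse genes chosen by name for their pathway: 16 enzymes that carry glucose to lactate, 4 kinases that steer that flow, 6 genes of the hypoxia-inducible factor (HIF) and its oxygen sensing, and 12 further target genes of HIF. All 38 had a row among the 23329 symbols of the count table, Pkm under its older symbol Pkm2, and all 38 passed the filter on low counts that left 15363 genes for testing. RNA came from sorted myeloid cells of C57BL/6 mice in 6 groups and 20 libraries. GEMM gliomas, the genetically engineered model, were started in Flt3:Cre Rosa26:mTmG mice at 6 weeks of age by injecting chicken DF1 cells that carry RCAS-PDGFB-HA or RCAS:shP53. Each of 3 tumours gave tumour-associated microglia, sorted as CD45+ CD11b+ Ly6C- Ly6G- cells that were GFP- TdTomato+, and bone-marrow-derived macrophages (BMDM), GFP+ TdTomato- cells of the same gate. GL261 tumours, from a mouse glioma line, gave the same pair from 3 tumours, and the sources used here do not say how they were made or in which mice. Normal brain microglia (3 libraries) and Ly6C-high blood monocytes (5 libraries) stood for the cells outside a tumour, with no genotype beyond the strain in the labels. In this design Cre is driven by Flt3, so the reporter marks descendants of Flt3-expressing progenitors, and cells that switch late or never would be sorted with microglia.

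Glycolysis splits glucose into pyruvate in the cytosol, and lactate dehydrogenase can turn that pyruvate into lactate instead of letting mitochondria burn it. Under normal oxygen, prolyl hydroxylases (the Egln genes) mark the HIF alpha subunits, and the VHL protein then has them destroyed. When oxygen falls, HIF alpha escapes, pairs with ARNT and raises transcription of most glycolytic enzymes and of genes for blood vessel growth, mitochondrial clearance and matrix building. Activated macrophages can also raise HIF-1alpha and glycolysis with oxygen present, and microglia of the healthy brain are known to use oxidative metabolism.

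Libraries held 18113450 to 36297826 counts in the 5 groups from brain and tumour and 5077787 to 7801073 in monocytes, which leaves monocytes with the coarsest values for low genes. Microglial markers (10 genes, none at 0 in a group) summed to 36891 to 41926 counts scaled to library size (CPM) in normal microglia, 15771 to 25289.7 in GEMM microglia, 2355 to 8874 in GL261 microglia, 3762 to 7910.4 in GEMM BMDM, 852 to 1859 in GL261 BMDM and 794 to 1263 in monocytes. Both libraries of GL261 tumour 80769 stood apart: Chi3l3, a monocyte and alternative activation gene, was at 4421 CPM in its microglia against 0.0429 and 1.24 in the other two and at 22717 in its BMDM against 26.0 and 30.3, and that microglia library had the lowest microglial sum, 2355 CPM. Counts of called genes in GL261 are therefore also given without that tumour, an alternative chosen after these values were seen. The ribosomal precursor Rn45s took 13.5% and 14.3% of counts in monocyte libraries 64820 and 64821 and at most 1.62% elsewhere. Xist was at 142 CPM or more in monocytes and at most 2.88 in any other library, while Y-linked Ddx3y was at 36.3 CPM or more in the other groups and at most 2.76 in monocytes, so that comparisons with monocytes also compare sexes. Model, and blood against brain, cannot be told apart from any difference in when libraries were made. The labels do not say that libraries of 1 group came from separate animals beyond their numbers, so p-values measure the spread between these samples. Levels are CPM on scaled library sizes, as mean ± SD, and a difference was called at an adjusted p (edgeR's quasi-likelihood test, Benjamini-Hochberg over all genes tested) under 0.05.

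Microglia of both gliomas carried more RNA for most steps of glycolysis than microglia of normal brain. In GEMM microglia 20 of the 38 genes were higher (over all genes tested 23.0% were) and 6 were lower (20.9%, and 43.8% were called in either direction), and 12 were not called. In GL261 microglia 19 were higher (over all genes 30.6%) and 9 lower (27.2%, and 57.8% were called in either direction), and without tumour 80769 the counts were 17 and 8. The median log2 difference of the 38 genes was 1.17 in GEMM and 0.73 in GL261, against −0.02 and 0.01 over all genes tested. Of the 16 enzymes, 11 rose and 2 fell in GEMM microglia, and 12 rose and 2 fell in GL261 microglia. The summed level of the 16 enzymes was 1850.1 ± 132 CPM in normal microglia, 8386 ± 1168 in GEMM microglia and 6446 ± 1201 in GL261 microglia. In bulk RNA, fewer cells of a type and less RNA per cell cannot be told apart. Both models are set against the same 3 normal libraries, so their values are given side by side and are not independent of each other.

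Enzymes near the end of the pathway had the smallest adjusted p-values. Pkm2, the row for pyruvate kinase M (chromosome 9, 59656368 to 59679375 in GRCm38), makes pyruvate and ATP. It was at 360.3, 332 and 336 CPM in the normal libraries, 2131, 2604 and 2155 in GEMM microglia and 1354, 1441 and 1755 in GL261 microglia. Every tumour library lay above every normal one, with a rise of 6.70-fold in GEMM (log2 difference 2.74 ± 0.18 SE, adjusted p = 8.19e-09) and 4.43-fold in GL261 (log2 difference 2.15 ± 0.18 SE, adjusted p = 4.08e-08). Ldha, the lactate dehydrogenase subunit that favours making lactate (chromosome 7, 46841475 to 46855627), was at 315, 249.7 and 254 CPM in normal microglia. It was at 1505, 1822 and 1425 CPM in GEMM microglia and 1066, 1200.2 and 1570.5 in GL261 microglia. The groups did not overlap, and Ldha rose 5.81-fold (log2 difference 2.54 ± 0.20 SE, adjusted p = 5.36e-08) and 4.69-fold (log2 difference 2.23 ± 0.20 SE, adjusted p = 7.37e-08). Pgam1, phosphoglycerate mutase, was at 26.0, 20.8 and 21.0 CPM in normal microglia, 107, 146 and 109 in GEMM and 60.5, 67.7 and 75.3 in GL261 microglia. It rose 5.32-fold in GEMM (log2 difference 2.41 ± 0.19 SE, adjusted p = 6.86e-08) and 3.00-fold in GL261 (log2 difference 1.58 ± 0.19 SE, adjusted p = 1.84e-06). Pgk1, phosphoglycerate kinase, an X-linked gene that yields the first ATP of the pathway, was at 26.6, 24.7 and 25.0 CPM in normal microglia, 147, 185 and 142 in GEMM and 114, 159 and 266 in GL261 microglia. The 3 GL261 libraries were spread more widely than the others, and all lay far above the normal ones, with rises of 6.22-fold (adjusted p = 8.38e-07) and 7.06-fold (adjusted p = 1.78e-07).

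Tpi1 (triose phosphate isomerase), Aldoa (aldolase A), Gpi1 (glucose phosphate isomerase) and Pfkl (the liver type of phosphofructokinase) rose as well, by 5.92-, 3.99-, 3.45- and 2.38-fold in GEMM microglia and 5.98-, 2.71-, 3.19- and 1.74-fold in GL261 microglia. Gapdh rose 5.04-fold and 3.86-fold, and its level is uncertain because 55 other annotated genes, mostly processed copies, have a near-identical transcript. Eno1, the main enolase, was at 0.705 to 3.77 CPM over all libraries and its near-identical copy Gm5506 (Eno1b) reached 9.41 CPM, so the level of Eno1 could have been lost to shared reads and its rise in GEMM (adjusted p = 0.0276) is uncertain. The hexokinases Hk1 and Hk2 of the first step did not follow. Hk3, a hexokinase outside the chosen enzymes, had the largest share of Hk1 to Hk3 in CPM per kilobase of exon. That share was 57.9 ± 5.67% in normal, 67.2 ± 1.12% in GEMM and 67.2 ± 3.07% in GL261 microglia. Its level was 33.7 ± 4.06, 40.3 ± 3.71 and 34.1 ± 10.7 CPM per kilobase in these groups. The step as a whole was not tested. Hexokinase 2 (Hk2), which traps glucose in the cell, was at 136, 94.3 and 125 CPM in normal microglia, 93.9, 83.4 and 106 in GEMM and 88.9, 89.8 and 33.5 in GL261 microglia. The GEMM libraries overlapped the normal ones (log2 difference −0.33 ± 0.26 SE, adjusted p = 0.323), and the fall in GL261 (−0.74 ± 0.26, adjusted p = 0.0213) was lost without both libraries of tumour 80769, where the log2 difference was −0.40 with an adjusted p = 0.0684. Hk1 differed in neither model past the threshold (log2 −0.27 ± 0.22 and 0.04 ± 0.22). Aldoc, the brain form of aldolase, fell in both (6.45-fold, adjusted p = 1.51e-05, and 2.56-fold, adjusted p = 0.00281), from 26.6, 51.7 and 82.4 CPM in normal microglia to 6.20, 8.68 and 9.96 in GEMM and 15.5, 20.3 and 26.9 in GL261 microglia. Astrocytes are its main source in brain, and 6 of 6 astrocyte markers were detected in each of these groups, summing to 394 to 483 CPM in normal, 111 to 183 in GEMM and 157 to 269 in GL261 microglia. Slc1a3 alone was at 373 to 445, 91.6 to 156 and 120.3 to 205 CPM, and the other 5 markers summed to 20.9 to 72.6, 19.6 to 27.2 and 33.2 to 63.8. These moved unequally: Aqp4 was at 3.06 to 12.6, 1.49 to 2.75 and 0 to 1.24 CPM, and Aldh1l1 at 1.48 to 4.66, 6.96 to 8.91 and 7.41 to 16.0. Their part in the fall of Aldoc was not tested.

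Markers of oligodendrocyte precursors or glioma cells (6 of 6 detected in each group) summed to 3.63 to 12.5 CPM in normal microglia, 154 to 239 in GEMM and 454 to 904 in GL261 microglia. The sums were 0.251 to 4.13 CPM in monocytes, 16.5 to 109 in BMDM of GEMM and 193 to 389.9 in GL261 BMDM. Tumour cells are themselves known to be glycolytic, and their part in the differences described here was not tested.

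**Figure D1:**
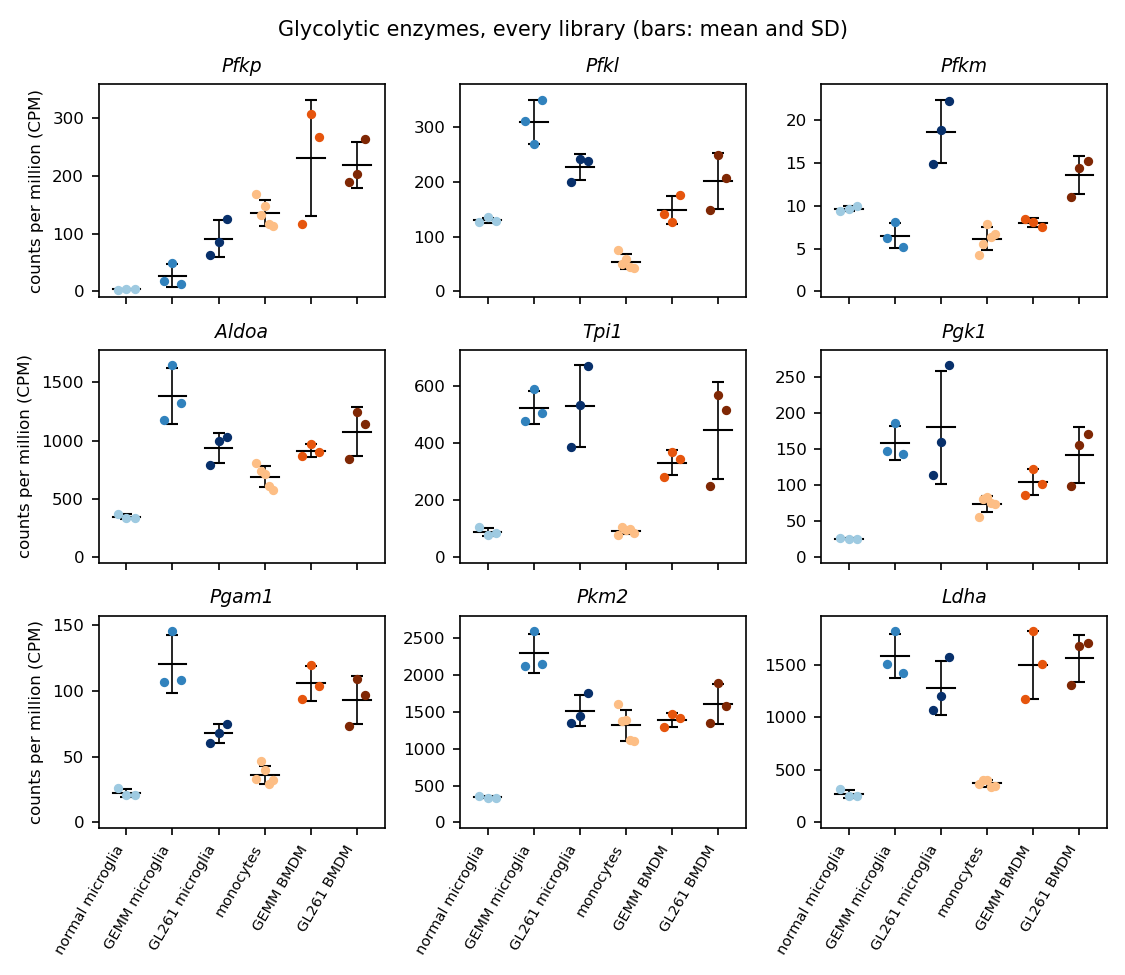
Library-scaled counts (CPM) of 9 glycolytic enzymes in every library (points), with the mean and SD of each group (bars); vertical axes start near 0 and differ between panels. Pkm2 and Ldha lie at 360.3 and 315 CPM or less in normal microglia and at 1066 CPM or more in every tumour library. Pfkp is at 4.87 CPM or less in normal microglia and 112.58 CPM or more in every monocyte and BMDM library.

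Isozyme shares are given on a scale of CPM per kilobase of annotated exon, which allows levels of different genes to be compared. Ldhb encodes the lactate dehydrogenase subunit that favours turning lactate into pyruvate. Ldha made up 17.6 ± 1.78% of Ldha plus Ldhb in normal microglia, 52.5 ± 4.90% in GEMM microglia and 73.1 ± 10.2% in GL261 microglia. The share was 82.6 ± 2.66% in monocytes, 84.8 ± 5.73% in BMDM of GEMM and 95.2 ± 1.38% in GL261 BMDM. Normal microglia were thus the one group in which Ldhb exceeded Ldha in every library. The shares moved through different subunits: Ldha itself did not differ past the threshold between BMDM and microglia of 1 tumour model (log2 −0.08 ± 0.19 in GEMM, adjusted p = 0.804; 0.29 ± 0.19 in GL261, adjusted p = 0.297), while Ldhb was lower in BMDM by 5.52-fold in GEMM (adjusted p = 3.34e-06) and 5.95-fold in GL261 (adjusted p = 4.41e-06). In CPM, Ldhb was at 611, 589.9 and 609 in normal, 660.1, 634 and 734 in GEMM and 275, 242 and 137 in GL261 microglia, and at 30.5, 37.6, 34.4, 40.0 and 42.4 in monocytes, 139, 83.9 and 145 in BMDM of GEMM and 38.2, 44.9 and 26.9 in GL261 BMDM. Ldhb was lower in GL261 than in GEMM microglia (3.10-fold, adjusted p = 9.51e-05) and lower in GL261 than in GEMM BMDM (3.34-fold, adjusted p = 0.000121).

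Phosphofructokinase, the committed step of glycolysis, is built from Pfkl, Pfkm (muscle) and Pfkp (platelet) subunits. On the scale of log2(CPM + 1), Pfkp (chromosome 13, 6579768 to 6648777) had the widest range of group means among the 38 genes. It was at 3.39, 3.84 and 4.87 CPM in normal microglia, 18.4, 49.6 and 13.4 in GEMM and 62.8, 86.4 and 125 in GL261 microglia. In monocytes it was at 168, 132, 149, 117 and 113 CPM, in GEMM BMDM at 116, 308 and 268 and in GL261 BMDM at 189, 203 and 264. By group mean, normal microglia had least and monocytes and BMDM most, with rises in microglia of 6.74-fold in GEMM (log2 difference 2.75 ± 0.43 SE, adjusted p = 6.74e-05) and 22.7-fold in GL261 (log2 difference 4.50 ± 0.46 SE, adjusted p = 3.64e-07). Its share of the family per kilobase was 1.32 ± 0.250% in normal microglia, 4.18 ± 3.31% in GEMM and 14.5 ± 3.17% in GL261 microglia, and 50.4 ± 0.939% in monocytes, 39.8 ± 12.5% in BMDM of GEMM and 32.6 ± 5.18% in GL261 BMDM. Exons of Pfkp overlap those of Pitrm1 on the other strand, and the sources used here name no strand setting for the counting, so part of its reads could belong to that gene. Pfkm, a minor subunit here, was at 9.37, 9.67 and 9.98 CPM in normal microglia, 6.25, 8.10 and 5.23 in GEMM and 14.9, 18.8 and 22.3 in GL261 microglia. It rose in GL261 (1.93-fold, adjusted p = 0.00149), and its fall in GEMM (1.48-fold, adjusted p = 0.0492) was lost under 10 of 12 alternatives.

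**Figure D2:**
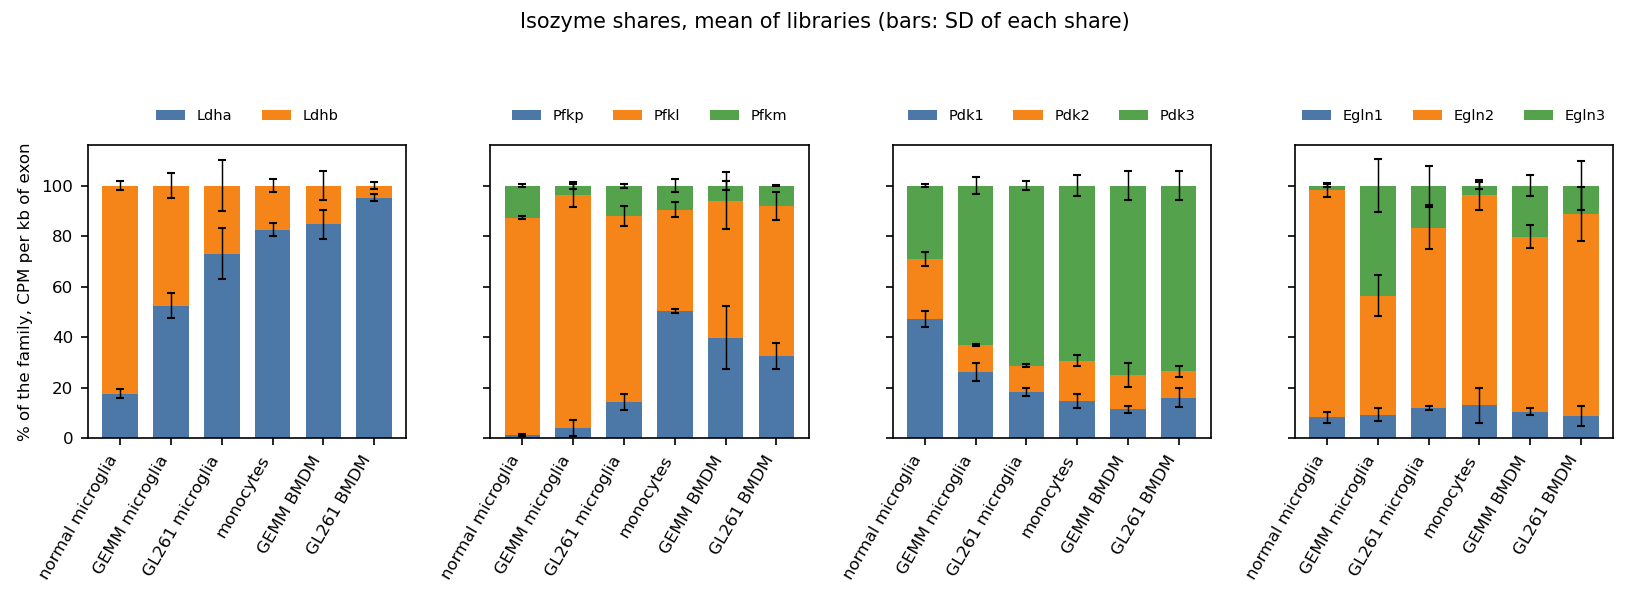
Share of each isozyme within its family (vertical axis, percent, from CPM per kilobase of exon) in the 6 groups, as means of libraries with the SD of each share. Ldha makes up 17.6 ± 1.78% of its family in normal microglia, 82.6 ± 2.66% in monocytes and 95.2 ± 1.38% in GL261 BMDM. Pdk3 rises from 29.1 ± 0.451% in normal to 71.2 ± 1.79% in GL261 microglia.

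Among the kinases, pyruvate dehydrogenase kinases 1 and 3 (Pdk1, Pdk3) block the entry of pyruvate into mitochondria, while Pfkfb3 and Pfkfb4 set the level of fructose 2,6-bisphosphate, the strongest activator of phosphofructokinase. Pdk3 rose in microglia of both models (3.01-fold, adjusted p = 6.97e-07, and 2.88-fold, adjusted p = 4.03e-07). Pdk1 was at 124, 123 and 106 CPM in normal, 95.2, 81.9 and 95.3 in GEMM and 54.6, 49.9 and 56.8 in GL261 microglia. It fell 2.19-fold in GL261 (log2 difference −1.13 ± 0.19 SE, adjusted p = 5.51e-05), and the difference in GEMM did not pass the threshold (log2 −0.38 ± 0.18, adjusted p = 0.106). Per kilobase, Pdk1 made up 47.3 ± 3.04% of Pdk1 to Pdk3 in normal microglia, 26.4 ± 3.55% in GEMM and 18.5 ± 1.51% in GL261 microglia, and Pdk3 29.1 ± 0.451%, 63.1 ± 3.45% and 71.2 ± 1.79%. Pfkfb4 fell in both models (1.65-fold, adjusted p = 0.0368, in GEMM, lost under 7 of 12 alternatives, and 2.97-fold, adjusted p = 0.000105, in GL261). Pfkfb3 was called in neither (log2 0.64 ± 0.32 and −0.26 ± 0.32).

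Of 8 genes for glucose and lactate transport, 4 rose and 1 fell in GEMM microglia, and 4 rose and 2 fell in GL261 microglia. Over all genes tested 23.0% rose and 20.9% fell in GEMM microglia, and 30.6% and 27.2% in GL261 microglia. Slc2a1, the basal glucose transporter GLUT1 (chromosome 4, 119108711 to 119137983), was at 133, 97.6 and 103 CPM in normal microglia, 174, 232 and 211 in GEMM and 208, 458 and 335 in GL261 microglia. It rose 1.85-fold (log2 difference 0.89 ± 0.26 SE, adjusted p = 0.0112) and 3.00-fold (log2 difference 1.59 ± 0.27 SE, adjusted p = 7.39e-05). Slc2a6, a transporter of the same family known from activated macrophages, went from 1.57 ± 0.228 CPM to 117 ± 16.3 in GEMM (74.3-fold, adjusted p = 1.18e-09) and 42.4 ± 18.7 in GL261 (26.9-fold, adjusted p = 5.29e-09). Slc16a3, the lactate exporter MCT4, rose 5.90-fold (adjusted p = 2.78e-06) and 3.53-fold (adjusted p = 3.47e-05), and Bsg, the chaperone that brings such exporters to the membrane, rose 2.28-fold in GEMM (adjusted p = 3.67e-06). Slc16a7, a lactate importer, fell 6.07-fold in GL261 (adjusted p = 3.33e-07).

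Among the HIF genes, Hif1a differed between the models. Hif1a, the oxygen-regulated alpha subunit (chromosome 12, 73901375 to 73947530), was at 245, 272 and 218 CPM in normal microglia, 949, 665 and 704 in GEMM and 312, 276 and 341 in GL261 microglia. GEMM libraries lay far above the rest and GL261 libraries just above the normal ones: the rise in GEMM was 3.15-fold (log2 difference 1.66 ± 0.17 SE, adjusted p = 6.90e-07), while the difference in GL261 was not called (log2 0.34 ± 0.16, adjusted p = 0.0809), except with DESeq2 size factors in place of TMM (log2 0.41, adjusted p = 0.0347) and with DESeq2 itself (log2 0.41, adjusted p = 0.0174). Tested directly, Hif1a was lower in GL261 than in GEMM microglia (log2 difference −1.32 ± 0.16 SE, adjusted p = 2.13e-05). Epas1, the alpha subunit HIF-2alpha, was low throughout, at 3.16, 2.27 and 3.50 CPM in normal, 3.00, 2.24 and 2.30 in GEMM and 5.49, 1.64 and 5.35 in GL261 microglia, and the groups overlapped (adjusted p = 0.723 and adjusted p = 0.425). Per kilobase, Hif1a made up 98.0 ± 1.06% of the pair in GL261 BMDM, its lowest share, and 99.7 ± 0.227% in monocytes, its highest. Arnt, their shared partner, fell 1.93-fold in GEMM (adjusted p = 2.25e-05) and 2.35-fold in GL261 (adjusted p = 6.83e-07). Vhl, the receptor of the destroying ligase, fell 2.54-fold in GL261 (adjusted p = 2.31e-06), with 139.8, 151 and 139 CPM in normal and 70.4, 52.2 and 46.2 in GL261 microglia, and was at 131, 103 and 115 in GEMM microglia (adjusted p = 0.149).

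Egln3, a prolyl hydroxylase that is itself a HIF target, rose from 1.16 ± 0.438 CPM in normal microglia to 45.9 ± 18.3 in GEMM (39.1-fold, log2 difference 5.29 ± 0.71 SE, adjusted p = 1.33e-05) and 10.5 ± 4.45 in GL261 (8.94-fold, log2 difference 3.16 ± 0.66 SE, adjusted p = 0.000517). Per kilobase it made up 1.73 ± 0.579% of the 3 hydroxylases in normal, 43.6 ± 10.6% in GEMM and 16.7 ± 7.67% in GL261 microglia, while Egln1 was called in neither comparison (adjusted p = 0.135 and adjusted p = 0.352). Of the 12 further targets, 6 rose and 2 fell in GEMM microglia, and 5 rose and 3 fell in GL261 microglia, so that 66.7% of them were called in each model, against 43.8% and 57.8% of all genes. P4ha2, a collagen prolyl hydroxylase subunit, rose from 1.18 ± 0.279 CPM to 19.0 ± 9.46 in GEMM (16.1-fold, adjusted p = 2.63e-05) and 14.3 ± 5.52 in GL261 (12.1-fold, adjusted p = 3.54e-05). Ero1l, an oxidase of protein folding, rose 4.77-fold (adjusted p = 0.00035) and 10.6-fold (adjusted p = 4.56e-06). Adm, the vessel-dilating peptide adrenomedullin, was at 3.39, 1.76 and 1.51 CPM in normal, 15.9, 36.5 and 9.17 in GEMM and 8.06, 11.5 and 10.7 in GL261 microglia (9.22-fold, adjusted p = 3.55e-05; 4.53-fold, adjusted p = 0.000575).

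Other targets parted by model. Bnip3, which marks mitochondria for removal, rose in GEMM microglia (4.45-fold, adjusted p = 5.18e-05) and was not called in GL261 (log2 0.49 ± 0.32, adjusted p = 0.193). P4ha1 and Bnip3l fell in GL261 (2.37- and 1.66-fold) and were not called in GEMM (log2 −0.08 ± 0.21 and 0.19 ± 0.19). Ddit4, an inhibitor of the growth kinase mTORC1 that stress hormones also induce, was at 25.8, 31.2 and 37.1 CPM in normal, 4.04, 2.27 and 5.67 in GEMM and 15.0, 23.6 and 28.2 in GL261 microglia. It fell 7.90-fold in GEMM (log2 difference −2.98 ± 0.57 SE, adjusted p = 0.000423) and was not called in GL261 (adjusted p = 0.434). Kdm3a, a histone demethylase, fell in both (1.99- and 1.65-fold). Ndrg1 was not called, and its libraries scattered, from 4.25 to 32.1 CPM in GEMM and from 2.74 to 42.5 in GL261 microglia. Ankrd37 and the mitochondrial gene Higd1a rose in both models, by 2.13- and 1.97-fold in GEMM and 1.99- and 1.49-fold in GL261, and the Ankrd37 calls were lost under 2 of 12 and 5 of 13 alternatives.

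**Figure D3:**
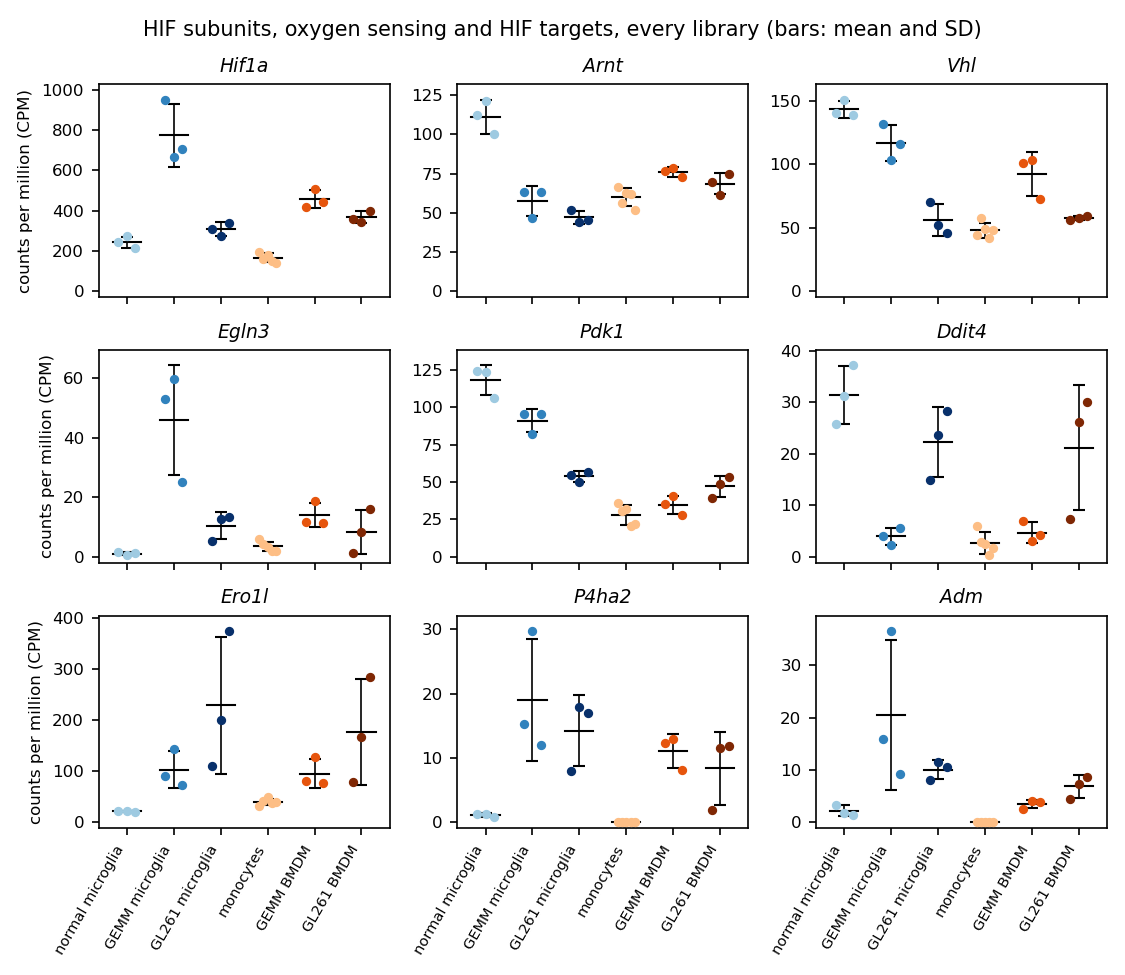
Library-scaled counts (CPM) of 9 genes of HIF, oxygen sensing and HIF targets in every library (points), with the mean and SD of each group (bars); vertical axes start near 0 and differ between panels. Hif1a and Egln3 are highest in GEMM microglia, Ddit4 is at 6.91 CPM or less in GEMM cells of both lineages, and P4ha2 and Adm are near 0 in monocytes.

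HIF binds a short core, ACGTG or GCGTG, and this was the only motif searched. Shown here are 3 genes called higher in all 4 comparisons of tumour microglia with normal microglia or BMDM with monocytes. They are shown to make the core visible. Printed are the 250 bases before a RefSeq transcription start (GRCm38.p6), 5′ to 3′ on the gene's strand. Every match to ACGTG or GCGTG on either strand is in capitals.
Ldha, chr7:46845554-46845803, + strand: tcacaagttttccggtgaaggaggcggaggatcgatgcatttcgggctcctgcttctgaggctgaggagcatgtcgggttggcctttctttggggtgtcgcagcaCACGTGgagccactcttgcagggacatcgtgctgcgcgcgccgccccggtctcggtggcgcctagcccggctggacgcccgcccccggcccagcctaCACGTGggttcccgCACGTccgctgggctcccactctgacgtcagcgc
Ero1l, chr14:45318573-45318822, - strand: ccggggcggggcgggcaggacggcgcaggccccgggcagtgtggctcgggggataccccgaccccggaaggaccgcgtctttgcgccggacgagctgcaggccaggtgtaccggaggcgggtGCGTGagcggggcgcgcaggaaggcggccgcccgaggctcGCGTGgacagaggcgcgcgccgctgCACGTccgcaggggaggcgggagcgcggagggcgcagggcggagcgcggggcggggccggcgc
P4ha2, chr11:54100674-54100923, + strand: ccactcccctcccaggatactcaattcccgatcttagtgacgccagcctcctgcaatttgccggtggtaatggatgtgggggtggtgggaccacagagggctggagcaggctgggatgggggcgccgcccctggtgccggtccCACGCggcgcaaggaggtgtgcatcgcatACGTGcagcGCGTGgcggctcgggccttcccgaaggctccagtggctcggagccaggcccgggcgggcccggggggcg
The Ldha stretch held 5 matches, Ero1l 3 and P4ha2 3, where the palindrome CACGTG counts as a match on each strand. Windows of 300 bases, 250 before to 50 after the start, were found for 35 of the 38 genes, and 31 of these had a match in at least 1 window, against 46.7% of 27025 genes. By window, 76.9% of the 52 windows of these genes and 43.8% of all 32851 held a match, with no matching for base composition. By direction in GEMM microglia, the core was found in 18 of 20 that rose, 6 of 6 that fell and 7 of 9 that were not called. HIF targets were among the 38 genes by choice, so a share above that of all genes does not test the list. Tpi1, also called higher in all 4 comparisons, had no match in its window. A match is a string of letters and not a measured binding site.

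BMDM of both tumours had more RNA than blood monocytes for Ldha, Tpi1 and Gapdh, for Hif1a and for the HIF targets P4ha2, Adm and Bnip3, while Pkm2 was called in neither (adjusted p = 0.682 and adjusted p = 0.108) and Hk1, Pfkfb4 and Bnip3l were lower in both. In GEMM BMDM 21 of the 38 genes were higher than in monocytes (over all genes tested 31.6%) and 5 lower (25.7%, and 57.3% were called in either direction). In GL261 BMDM 21 were higher (over all genes 34.1%) and 3 lower (28.9%, and 63.0% were called in either direction), and without tumour 80769 22 and 5. The medians of the 38 log2 differences were 0.76 and 0.75, against 0.08 and 0.06 over all genes. The summed level of the 16 enzymes was 3762 ± 444 CPM in monocytes, 6293 ± 868 in BMDM of GEMM and 6983 ± 1199 in GL261 BMDM, so monocytes started from a higher sum than normal microglia (1850.1 ± 132 CPM). Neutrophil markers (7 genes, S100a8 and S100a9 among them, which monocytes also express, and with Camp at 0 in both kinds of BMDM) summed to 1377 to 22789 CPM in monocytes, 10.6 to 1994 in BMDM of GEMM and 20.5 to 38.6 in GL261 BMDM, and platelet markers (5 of 5) to 837 to 1887, 72.5 to 124 and 79.6 to 155 CPM. Red cell markers summed to 380.2 to 878, 0.603 to 13.5 and 0.743 to 496 CPM, B cell markers to 79.2 to 660.1, 30.1 to 36.7 and 8.04 to 16.6, and dendritic cell markers to 132 to 228, 488 to 1342 and 75.6 to 527. Their part in these differences was not tested.

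Ldha was at 366, 404, 403, 333 and 349.8 CPM in monocytes, 1172, 1818 and 1503 in BMDM of GEMM and 1306, 1677 and 1707 in GL261 BMDM. All BMDM libraries lay above all monocyte libraries, and Ldha rose 4.03-fold in GEMM (log2 difference 2.01 ± 0.16 SE, adjusted p = 1.74e-08) and 4.21-fold in GL261 (log2 difference 2.07 ± 0.16 SE, adjusted p = 9.76e-09). Tpi1 was at 76.0, 105, 95.9, 98.8 and 83.3 CPM in monocytes, 283, 369 and 344 in BMDM of GEMM and 249.8, 568 and 516 in GL261 BMDM. It rose 3.62-fold (log2 difference 1.85 ± 0.22 SE, adjusted p = 1.39e-06) and 4.85-fold (log2 difference 2.28 ± 0.22 SE, adjusted p = 1.03e-07). Pgam1, Gapdh and Pfkl rose in both, by 2.91-, 2.95- and 2.73-fold in GEMM and 2.56-, 3.00- and 3.71-fold in GL261. Pkm2, the enzyme with the smallest p in microglia, was already at 1322 ± 212 CPM in monocytes and was not called in BMDM (log2 0.08 ± 0.15, adjusted p = 0.682; 0.29 ± 0.15, adjusted p = 0.108). Gpi1 and Pfkp were not called either in GEMM (adjusted p = 0.274 and adjusted p = 0.0681) or in GL261 (adjusted p = 0.499 and adjusted p = 0.0931). Hk1 fell 2.86-fold in GEMM (adjusted p = 8.72e-06) and 2.05-fold in GL261 (adjusted p = 0.000293), and Hk2 was at 56.3, 55.7, 62.1, 45.4 and 56.3 CPM in monocytes, 58.8, 60.9 and 71.6 in BMDM of GEMM and 41.2, 58.3 and 44.4 in GL261 BMDM, with groups that overlapped (adjusted p = 0.462 and adjusted p = 0.472). Pfkfb4 fell 3.68- and 5.44-fold, and Pdk3, which like Pgk1 is X-linked, rose 1.70- and 1.67-fold.

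Hif1a rose in both kinds of BMDM, from 195, 161, 182, 151 and 141 CPM in monocytes to 421, 508 and 441 in GEMM (2.75-fold, log2 difference 1.46 ± 0.14 SE, adjusted p = 1.34e-07) and 357, 345 and 399.9 in GL261 (2.21-fold, log2 difference 1.14 ± 0.14 SE, adjusted p = 1.85e-06). Epas1 rose from 0.377, 0.149, 1.21, 0.413 and 0.375 CPM to 3.29, 3.15 and 3.84 in GEMM (adjusted p = 0.000268) and 4.94, 4.12 and 12.4 in GL261 (adjusted p = 6.65e-06), and stayed low beside Hif1a. P4ha2 and Adm had 1 read each in all 5 monocyte libraries together. P4ha2 was at 12.4, 12.95 and 8.07 CPM in BMDM of GEMM and 1.92, 11.5 and 11.9 in GL261 BMDM, a ratio over monocytes of 359.7-fold, with a counting interval of 64.4 to 14220.3, in GEMM and 275-fold, with a counting interval of 49.2 to 10897, in GL261 (95%, counting error alone; adjusted p = 2.77e-07 and adjusted p = 4.87e-07). Adm was at 2.57, 4.02 and 3.91 CPM in BMDM of GEMM and 4.54, 7.37 and 8.69 in GL261 BMDM, a ratio of 114-fold, with a counting interval of 20.2 to 4504, and 223-fold, with a counting interval of 39.9 to 8839 (adjusted p = 1.38e-06 and adjusted p = 1.17e-07). Bnip3 rose in both (3.91-fold, adjusted p = 1.30e-05; 3.12-fold, adjusted p = 7.47e-05) and its relative Bnip3l fell in both (2.20-fold, adjusted p = 2.51e-05; 2.75-fold, adjusted p = 1.43e-06). P4ha1, which fell or was not called in microglia, rose 3.31- and 2.47-fold. The glucose transporter Slc2a1 was at 43.2, 35.9, 38.4, 33.2 and 30.0 CPM in monocytes, 109.9, 177 and 158 in BMDM of GEMM and 219, 395 and 245 in GL261 BMDM. It rose 4.10-fold (log2 difference 2.03 ± 0.23 SE, adjusted p = 1.01e-06) and 7.92-fold (log2 difference 2.98 ± 0.24 SE, adjusted p = 9.97e-09), while Slc2a6 fell in GL261 BMDM (9.10-fold, adjusted p = 2.81e-08). Slc2a3, the high-affinity transporter GLUT3, named here after its values were seen, was at 884, 383, 396, 257 and 177 CPM in monocytes, 69.1, 17.7 and 18.9 in BMDM of GEMM and 9.63, 19.4 and 15.8 in GL261 BMDM. No BMDM library reached the lowest monocyte library, and Slc2a3 fell 11.9-fold (log2 difference −3.57 ± 0.59 SE, adjusted p = 5.60e-05) and 28.1-fold (log2 difference −4.81 ± 0.63 SE, adjusted p = 3.87e-06). Per kilobase it made up 49.96 ± 10.3% of the 3 Slc2a transporters in monocytes, and 7.91 ± 7.76% and 2.34 ± 0.437% in the BMDM. Of the 8 transport genes, 4 rose and 2 fell in BMDM of GEMM and 4 rose and 3 fell in GL261 BMDM, or 75.0% and 87.5% of them called against 57.3% and 63.0% of all genes.

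Across the 4 comparisons of microglia or BMDM of tumours with cells outside a tumour, 11 genes were called higher in each (over all genes 8.68%). They were Pfkl, Aldoa, Tpi1, Gapdh, Pgam1 and Ldha among the enzymes, the kinase Pdk3, and the HIF targets Ero1l, P4ha2, Higd1a and Adm. Pfkfb4 was lower in each (over all genes 5.85%), though its call in GEMM microglia was lost under 7 of 12 alternatives. Egln1 and Ndrg1 were called in none (over all genes 11.4%). These counts share control libraries within a lineage. A further 7 genes, Pfkm, Aldoc, Pdk1, Arnt, Vhl, Ddit4 and P4ha1, were called in opposite directions in at least a pair of the comparisons, as were 17.2% of all genes. Whether a gene's response differed between microglia and BMDM was not tested. The Aldoa call in GEMM BMDM (log2 0.41 ± 0.16, adjusted p = 0.0334) was lost under 7 of 15 alternatives. Arnt and Pfkm were opposite only through the rise of Arnt in GEMM BMDM and the fall of Pfkm in GEMM microglia. Those calls were lost under 4 of 15 and 10 of 12 alternatives.

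**Figure D4:**
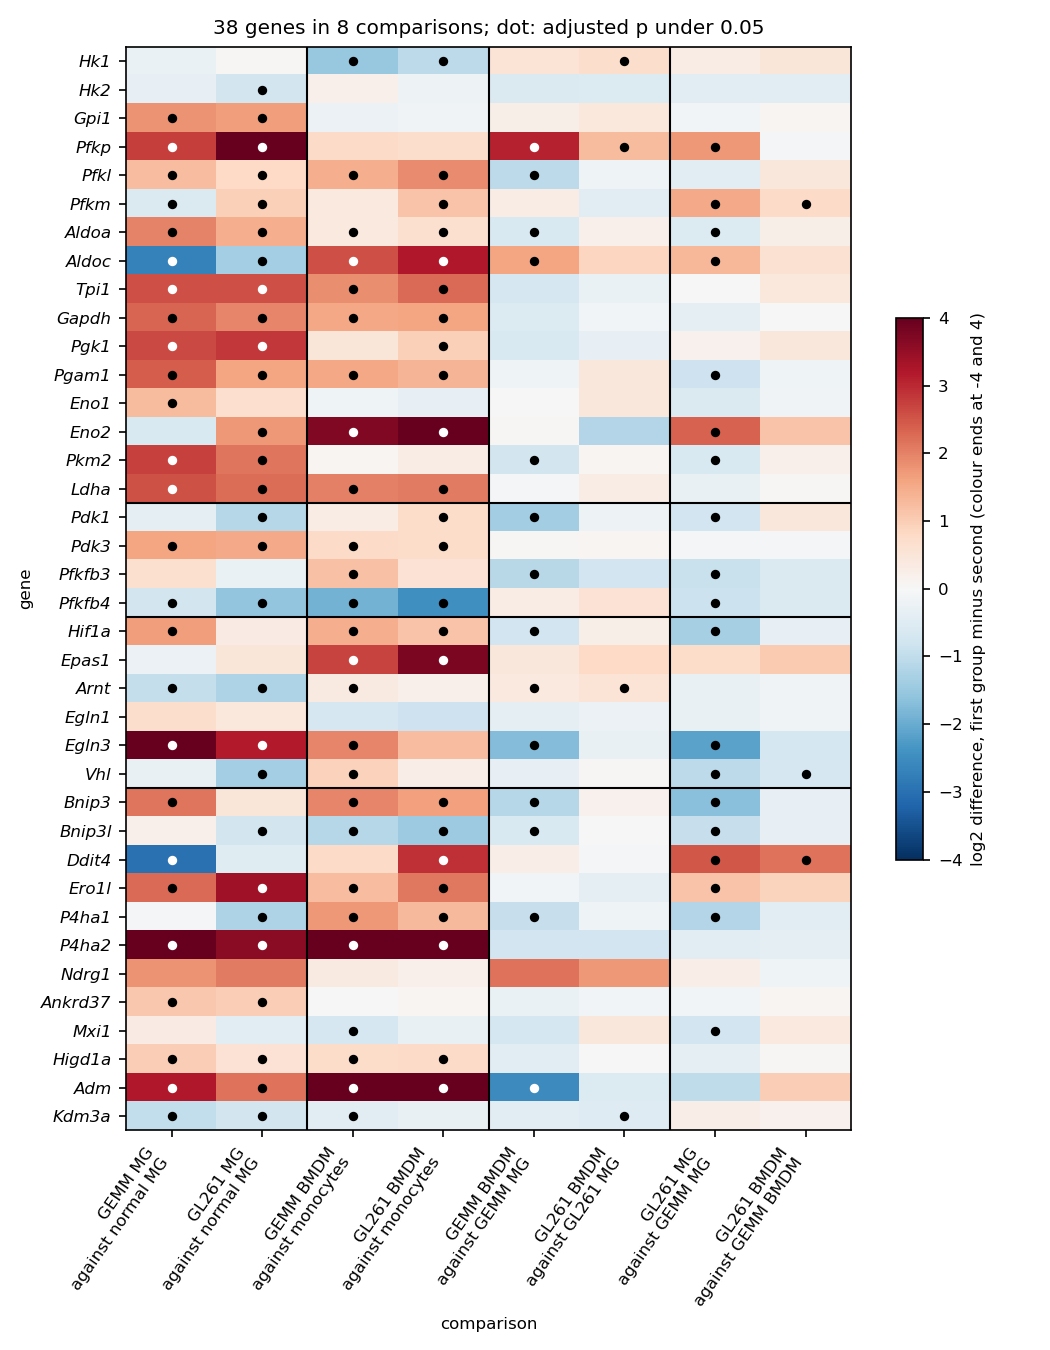
Log2 difference (colour, ending at −4 and 4) of the 38 genes (rows, in the order enzymes, kinases, HIF and oxygen sensing, other HIF targets) in 8 comparisons (columns); a dot marks an adjusted p under 0.05. The first 4 columns hold 20, 19, 21 and 21 genes called higher, and the 2 columns of GL261 lineages and of BMDM between models hold few dots.

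Within GEMM tumours, microglia carried more RNA for several of these genes than BMDM of the same tumours. In BMDM 3 genes were higher (over all genes tested 12.7%) and 11 lower (8.1%, and 20.8% were called in either direction) than in microglia, with a median log2 difference of −0.40 against 0.01 over all genes. With the tumour as a replicate block, 4 were higher and 16 lower, and over all 14356 genes tested in that fit 2179 were higher and 1496 lower. Pdk1 was at 95.2, 81.9 and 95.3 CPM in microglia and 35.3, 40.4 and 28.3 in BMDM, with no overlap (2.62-fold lower, log2 difference −1.39 ± 0.19 SE, adjusted p = 4.84e-05). Adm was at 15.9, 36.5 and 9.17 CPM in microglia and 2.57, 4.02 and 3.91 in BMDM (5.86-fold lower, log2 difference −2.55 ± 0.46 SE, adjusted p = 0.000653). Hif1a was 1.69-fold lower in BMDM (log2 difference −0.76 ± 0.16 SE, adjusted p = 0.00262). The genes lower in BMDM also included Pfkl, Aldoa, Pkm2, Pfkfb3, Egln3, Bnip3, Bnip3l and P4ha1, by 1.51-fold for Aldoa up to 3.29-fold for Egln3. The Egln3 call was lost under 6 of 13 alternatives and that of Pfkfb3 under 3 of 13, and without the BMDM library BB30105 the count of lower genes fell to 6. Pfkp ran against them, at 18.4, 49.6 and 13.4 CPM in microglia and 116, 308 and 268 in BMDM (8.47-fold higher, log2 difference 3.08 ± 0.43 SE, adjusted p = 6.05e-05), as did Aldoc (2.97-fold, adjusted p = 0.00388). Arnt was higher by log2 0.40 ± 0.13 (adjusted p = 0.0394) but the call was lost under 11 of 13 alternatives, the block among them (log2 0.42, adjusted p = 0.06). Dendritic cell markers (7 of 7 detected) summed to 15.9 to 64.3 CPM in GEMM microglia and 488 to 1342 in GEMM BMDM, and glioma markers to 154 to 239 and 16.5 to 109. Their part in these differences was not tested.

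Within GL261 tumours few of these genes were called between the lineages. In BMDM 3 genes were higher (over all genes 10.7%) and 1 lower (6.81%, and 17.5% were called in either direction), or 10.5% of the 38, below the share of all genes, and the median log2 difference was −0.02 against −0.08 over all genes. With the replicate block the counts were 6 and 2, and over all 14356 genes tested in that fit 1957 and 1246. They were 1 and 3 without tumour 80769. Without its BMDM library alone 0 genes were higher, 5 without its microglia library alone, and 1 without microglia library 80766 or 80767. Hk1 was at 42.6, 31.4 and 46.6 CPM in microglia and 64.9, 67.0 and 64.5 in BMDM (log2 0.70 ± 0.22, adjusted p = 0.0367). Arnt was at 52.1, 44.3 and 45.6 CPM in microglia and 69.7, 61.6 and 75.0 in BMDM (log2 0.54 ± 0.13, adjusted p = 0.00916). Kdm3a was at 94.6, 119 and 111 CPM in microglia and 60.3, 76.7 and 88.5 in BMDM (log2 −0.53 ± 0.16, adjusted p = 0.0298). The groups did not overlap for these 3 genes, and each call was lost under some alternatives (7, 3 and 5 of 14). Pfkp was the third gene higher in BMDM (2.39-fold, adjusted p = 0.0372), lost under 6 of 14 alternatives.

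The difference between the models in this lineage contrast was tested itself, as the GL261 difference minus the GEMM difference. It was called for 2 of the 38 genes (over all genes 0.605% were higher) and none was lower (1.02%, and 1.63% in either direction). DESeq2 called 1 lower (435 over all genes). In edgeR 13 of the 38 genes had an unadjusted p under 0.05 in either direction, as did 2352 of all 15363 genes tested. For Pdk1 the difference between the models was log2 1.20 ± 0.26 (adjusted p = 0.0273), from −1.39 in GEMM and −0.19 in GL261. For Hif1a it was log2 1.00 ± 0.23 (adjusted p = 0.0342), from −0.76 and 0.25, and with the replicate block it was 0.99 (adjusted p = 0.074), while Bnip3 was then called. Both calls were lost under several alternatives, 6 of 20 for Pdk1 and 8 for Hif1a. Leaving out GL261 microglia 80767, GEMM BMDM BB30105 or GL261 BMDM 80769 ended both, while without both libraries of tumour 80769 Hif1a was still called (log2 1.02, adjusted p = 0.048) and Pdk1 was not (log2 1.14, adjusted p = 0.0563).

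**Figure D5:**
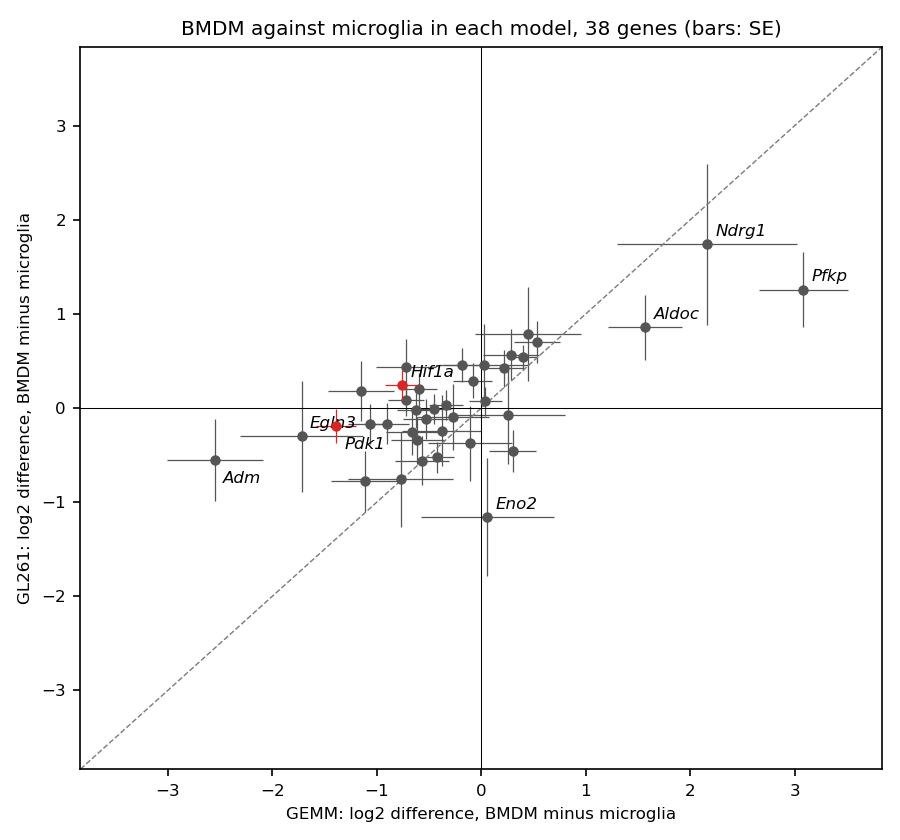
Log2 difference of BMDM minus microglia in GEMM (horizontal axis) and GL261 (vertical axis) for the 38 genes, with SE bars; the dashed line marks equal differences and red points are genes whose difference between models was called. Pdk1 and Hif1a lie above the line, at −1.39 and −0.76 in GEMM.

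Between tumour models, 19 of these genes were called in microglia and 3 in BMDM, and the difference between those contrasts is the one tested above, called for Pdk1 and Hif1a. In GL261 against GEMM microglia 6 genes were higher (over all genes tested 18.8%) and 13 lower (15.5%, and 34.3% were called in either direction), or 5 and 13 without tumour 80769, with a median log2 difference of −0.39 against 0.04 over all genes. In GL261 against GEMM BMDM 2 were higher (over all genes 10.2%) and 1 lower (9.46%, and 19.7% were called in either direction), or 1 and 2 without that tumour. The count of higher genes was 0 without GEMM BMDM library BB30101 and 5 without GL261 BMDM library 80766, and it was 1 without GEMM BMDM BB30105, GL261 BMDM 80767 or GL261 BMDM 80769. Vhl was lower in GL261 in both lineages, 2.07-fold in microglia (log2 difference −1.05 ± 0.16 SE, adjusted p = 0.000128) and 1.60-fold in BMDM (log2 difference −0.68 ± 0.16 SE, adjusted p = 0.00706). Its levels in BMDM were 101, 103 and 72.4 CPM in GEMM and 56.3, 57.4 and 59.1 in GL261. Ddit4 was higher in GL261 in both lineages, 5.60-fold in microglia (log2 difference 2.49 ± 0.56 SE, adjusted p = 0.00256) and 4.48-fold in BMDM (log2 difference 2.16 ± 0.55 SE, adjusted p = 0.0106). In BMDM it was at 6.91, 3.05 and 4.26 CPM in GEMM and 7.41, 26.1 and 30.1 in GL261, and 1 GL261 library lay close to the GEMM ones. Pfkm was also higher in both, 2.85-fold (log2 difference 1.51 ± 0.23 SE, adjusted p = 9.90e-05) and 1.69-fold (log2 difference 0.75 ± 0.22 SE, adjusted p = 0.024), at 8.50, 8.17 and 7.48 CPM in BMDM of GEMM and 11.04, 14.5 and 15.2 in GL261 BMDM. Called in microglia and not in BMDM, GL261 was lower for Bnip3 (3.16-fold), Egln3 (4.38-fold), P4ha1 (2.24-fold), Bnip3l (1.90-fold), Pgam1 (1.77-fold) and Pdk1 (1.69-fold), and higher for Pfkp (3.36-fold), Aldoc (2.52-fold) and Eno2, the neuronal enolase (5.08-fold). Ero1l was higher too (2.22-fold, adjusted p = 0.0359), and that call ended without tumour 80769 (log2 0.60, adjusted p = 0.193).

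Over the 6 group means of log2(CPM + 1), the genes of the 38 whose pattern was most like that of Pfkp were Ndrg1 (Pearson r = 0.90), Gpi1 (0.897), Eno1 (0.73), Pdk3 (0.72) and Pkm2 (0.66). These are descriptions over 6 points that share libraries and scaling.

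Neighbouring pathways were read with the same fit. Of the 7 pentose phosphate genes, which make NADPH and ribose from glucose, 6 rose and none fell in GEMM microglia and 3 rose and none fell in GL261 microglia, while none rose and 4 and 6 fell in GEMM and GL261 BMDM against monocytes. Those called were 85.7%, 42.9%, 57.1% and 85.7% of the list in these 4 comparisons, against 43.8%, 57.8%, 57.3% and 63.0% of all genes, so the GL261 microglia and GEMM BMDM shares were not above those of all genes. Tkt, transketolase, was at 84.1 ± 3.46 CPM in normal microglia, 181 ± 14.6 in GEMM (adjusted p = 1.45e-05) and 137 ± 18.4 in GL261 (adjusted p = 0.000612) microglia, and at 556 ± 82.4 in monocytes, 240.1 ± 14.1 in GEMM (adjusted p = 9.52e-07) and 231 ± 31.0 in GL261 BMDM (adjusted p = 4.46e-07). Taldo1, transaldolase, rose in microglia (2.38- and 1.53-fold) and fell in BMDM against monocytes (1.61- and 2.58-fold). Of 26 genes for pyruvate entry and the tricarboxylic acid cycle, 13 rose and none fell in GEMM microglia, 8 rose and 6 fell in GL261 microglia, and 18 and 17 rose with 1 and 2 falling in GEMM and GL261 BMDM. Over all genes 23.0% rose in GEMM microglia, 30.6% in GL261 microglia, and 31.6% and 34.1% in the BMDM, so the count that rose in GL261 microglia was near the background. Sdhb of succinate dehydrogenase rose 2.01-fold in GEMM microglia (adjusted p = 9.29e-06), and Sdhc rose 3.54- and 3.80-fold in BMDM (adjusted p = 5.17e-08 and adjusted p = 2.23e-08).

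Of 35 further HIF targets tested, 16 rose and 6 fell in GEMM microglia, 15 and 9 in GL261 microglia, 19 and 3 in BMDM of GEMM and 21 and 6 in GL261 BMDM. That is 62.9%, 68.6%, 62.9% and 77.1% of the list, beside 43.8%, 57.8%, 57.3% and 63.0% of all genes. Cxcr4, a chemokine receptor, rose 33.0-fold in GEMM microglia (adjusted p = 7.88e-08) and 16.0-fold in GL261 microglia (adjusted p = 2.70e-07), and Plin2, a lipid droplet coat protein, rose 13.1- and 7.94-fold (adjusted p = 9.97e-08 and adjusted p = 2.78e-07). Vegfa, the vessel growth factor, was at 8.79, 4.46, 5.64, 1.44 and 1.50 CPM in monocytes, 178, 202 and 169.5 in BMDM of GEMM and 229.9, 316 and 319 in GL261 BMDM (62.8-fold in GL261, adjusted p = 2.25e-08). Plod2, a collagen lysyl hydroxylase, was at 1.67, 2.01 and 1.11 CPM in GEMM and 23.6, 45.5 and 119 in GL261 microglia (38.8-fold higher in GL261, adjusted p = 2.28e-05), and 25.8-fold higher in GL261 than in GEMM BMDM (adjusted p = 9.87e-05). Bhlhe40, a transcriptional repressor, was 8.98-fold higher in BMDM than in microglia of GEMM (adjusted p = 0.000106) and 6.50-fold higher in GL261 (adjusted p = 0.000516). Among the side enzymes, Bpgm, which makes 2,3-bisphosphoglycerate and is abundant in red cells, was 11.5-fold higher in GL261 than in GEMM microglia (adjusted p = 2.95e-07) and 8.57-fold higher in GL261 than in GEMM BMDM (adjusted p = 1.29e-06). Its levels were 110.4, 172 and 214 CPM in GL261 microglia and 14.6, 14.8 and 13.6 in GEMM microglia. Red cell markers (6 rows, of which Hba-a1, Hba-a2, Hbb-b1 and Hbb-b2 were at 0 in both groups) summed to 28.9, 1839 and 0.486 CPM in those 3 GL261 libraries and to 1.81 to 24.3 in GEMM microglia. Their part in the difference was not tested. Of 11 remaining oxygen sensing genes, 3 rose and 4 fell in GEMM microglia and 2 rose and 4 fell in GL261 microglia, or 63.6% and 54.5% of the list, the latter below the 57.8% of all genes. Tceb2, a partner of VHL in its ligase, rose 2.85- and 3.20-fold and Siah1a, a ligase for the Egln proteins, fell 2.32- and 2.34-fold (adjusted p = 1.60e-06 and adjusted p = 5.54e-07).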

How the data were processed

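The study measured polyA RNA of sorted cells by Smart-Seq. The deposited table holds whole-number counts per gene symbol for 20 libraries, not normalized; per the submitters' processing notes CASAVA 1.8, STAR 2.5.0e, HTSeq, DESeq2 and mm10 were used, with no role, strand setting or annotation given. From these counts, edgeR 4.0.16 (R 4.3.3) fitted all 6 groups together with TMM scaling, genes passing filterByExpr (minimum count 10, total 15) and robust quasi-likelihood dispersions, and adjusted p over 15363 genes. CPM used TMM-scaled library sizes. DESeq2 1.42.0, limma 3.58.1 (voom) and the settings in the closing section were alternatives. Microglia and BMDM of 1 tumour share its number, per the labels' design text, and deviated together (r from 0.1963 to 0.3932). Pairs with different numbers had r from −0.3351 to 0.0797. Deviations were taken from group means, which ties these values to each other. The main fit had no block for the tumour, and the replicate block was an alternative. No libraries of a group were identical, but monocyte libraries fell into close pairs. Chi-square per degree of freedom was 3.198 between 64818 and 64819 and 4.283 between 64820 and 64821. It was 35.06 to 133.8 for other monocyte pairs and 19.03 or more within other groups. Rn45s shares paired the same way (1.625% and 1.568%, 13.512% and 14.321%). Whether paired libraries are independent samples was not tested, and p-values count each library as a separate sample. All comparisons share an estimate of the spread from all 20 libraries. The limit of the monocyte pairs therefore also reaches p-values of comparisons without monocytes. The 38 genes and the related lists were chosen with earlier results of these data known. Every library's value is given for the 3 called genes with the smallest p in each comparison and for Hif1a, Epas1, Hk2 and Slc2a1; up to 3 per related list could be named, not all of which are reported here, and other genes were chosen after their values were seen. Near-identical transcripts of other genes (97% or more) exist for 14 of the 38 and antisense exon overlap for 6. Intervals cover counting error only.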

Additional observations from a re-analysis of the deposited data

Results flagged for a closer look

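Among the 5 monocyte libraries, the only group large enough for a test of a stray library (38 genes tested, of which chance flags about 1 in 20), library 64819 was flagged for 3 genes. Epas1 was at 1.21 CPM there, and the next library was at 0.413 CPM. P4ha2 and Adm were at 0.134 CPM each in that library and at 0 in the other 4, which is 1 read for each gene. With the other 4 at 0, a single read is enough for a flag, so these flags say nothing about the library.

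The difference between BMDM and microglia itself differed between the tumour models for 2 genes, tested as an interaction in edgeR's quasi-likelihood fit. It was log2 1.20 for Pdk1 and log2 1.00 for Hif1a (GL261 minus GEMM), and both calls depend on single libraries.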

How the results depend on the processing

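No called gene changed direction under any alternative run. Scaling, tool and filter moved these counts past 1.5 times: genes lower in GEMM BMDM than monocytes were 3 with no filter, and those lower in GL261 BMDM than monocytes 5 with DESeq2 size factors, with DESeq2 and without tumour 80769. Those lower in GEMM BMDM than GEMM microglia were 17 with DESeq2, which called 1918 of all 15363 genes lower. Higher in GL261 BMDM than microglia were 1 with no filter, 6 with the replicate block and 1 without tumour 80769; lower were 0 with only the groups compared, 2 with the block and 3 without that tumour. In GL261 against GEMM BMDM 1 was higher and 2 lower without it. For the difference between models, 0 were higher with no filter and with only the groups compared, 4 with DESeq2 and 1 without tumour 80769, and 1 was lower with DESeq2. Leaving out each library gave 3 to 5 lower in both comparisons with monocytes (3 in GEMM without BMDM library BB30101 or BB30105, 5 in GL261 without BMDM library 80769), 6 to 12 lower between GEMM lineages, 0 to 5 higher and 0 to 2 lower between GL261 lineages, 0 to 5 higher and 1 to 2 lower between BMDM of the models, and 0 to 4 higher and 0 to 1 lower for the difference between models. The replicate block lost Arnt between GEMM lineages and Hif1a in the difference between models. The cause was not tested. Some settings shifted the median log2 difference of all genes by over 0.1: in GEMM BMDM against monocytes by −0.107 with DESeq2 size factors, −0.114 with DESeq2 and −0.164 with no filter, in GL261 BMDM against monocytes by −0.25 with no filter, and without Rn45s by −0.102 between microglia of the models and 0.118 in the difference between models. With plain totals, 26 of 228 group levels moved by over 1 SD. Depth limits low genes in monocytes most.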
